A study of Mus musculus with 43 samples.

Results

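Fragments of the nuclear leucine tRNAs (tRNA-Leu) were examined in mouse epididymis tissue, epididymal fluid and cauda sperm of wild-type (WT) mice and of Rnase9-12 knockout (KO) mice. The members are the count rows whose name begins with tRNA-Leu and ends with fiveprime, threeprime or other, that is, 5′ tRNA fragments (5′ tRFs, which begin at or near the 5′ end of the mature tRNA), 3′ tRFs (which reach the 3′ end) and other tRFs (which reach neither end). There were 54 such rows among the 5364 row names of the 3 count tables. They came from 18 isodecoders, that is, tRNAs with the same anticodon and a different body: 3 of tRNA-Leu-AAG, 4 of tRNA-Leu-CAA, 4 of tRNA-Leu-CAG, 4 of tRNA-Leu-TAA and 3 of tRNA-Leu-TAG, called AAG-1 and so on below. All 54 were listed in each table, and 51 passed the filter on low counts in tissue, 50 in fluid and 50 in sperm. Those that did not pass were all fragments of TAA-3 or TAA-4.

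All mice were FVB and 8 to 12 weeks old. The KO mice carried a deletion of Rnase9, Rnase10, Rnase11 and Rnase12, neighbouring genes of the RNase A family that are expressed in the epididymis, and the WT mice did not. Tissue libraries were made with ARM-seq (3 WT and 3 KO libraries of the caput and of the cauda, 3 WT and 2 KO libraries of the corpus), and fluid (3 WT and 3 KO libraries of each segment) and cauda sperm (4 WT and 4 KO libraries) with OTTR-seq. Both are small RNA-seq protocols, and the RNA was treated with polynucleotide kinase beforehand, which opens RNA ends left by RNase A cleavage to cloning. Each fluid and sperm library held the RNA of 3 mice. The fluid was the supernatant left after spins that pellet sperm, cell debris and extracellular vesicles, so marker miRNAs of cell types are given for it as RNA levels only. In tissue and sperm, fewer cells of a type and less RNA per cell cannot be told apart.

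Leucine is read by 5 nuclear anticodons. The tRNA with AAG, whose first anticodon base is edited to inosine, reads the CUN codons ending in U and C, CAG reads CUG, the leucine codon used most in mammals, TAG reads CUA, TAA reads UUA and CAA reads UUG, and the CAA genes carry an intron. Leucine, serine and selenocysteine tRNAs differ from the other nuclear tRNAs in a long variable arm, an extra stem between the anticodon and the T arm. Nucleases that cut tRNA in the anticodon loop leave a 5′ and a 3′ piece, and such pieces are among the most abundant small RNAs of sperm.

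A nuclear leucine tRNA is shown beside the mitochondrial one with the same anticodon, since the tables count them as separate RNAs and they differ in the variable arm. Capitals mark the anticodon, and both are written 5′ to 3′ as DNA. The first is the mm10 (GRCm38) stretch chr10:12922574-12922653, minus strand, an exon of the long noncoding RNA B230208H11Rik, which holds 80 of the 83 bases of the tRNA gene n-TLtaa3. The second is mt-Tl1, chrM:2676-2750, plus strand. The deposited names TAA-1 to TAA-4 could not be matched to single genes.

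n-TLtaa3 (TAA, nuclear): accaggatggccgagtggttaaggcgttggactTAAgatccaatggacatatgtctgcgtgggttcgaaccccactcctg

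mt-Tl1 (TAA, mitochondrial): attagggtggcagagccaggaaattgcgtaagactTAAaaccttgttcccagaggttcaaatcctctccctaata

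RefSeq lists 25 nuclear tRNA-Leu genes in this build, 5 with AAG, 4 with CAA, 10 with CAG, 3 with TAA and 3 with TAG. They were 82 or 83 bp long except for the CAA genes, at 105 to 107 bp.

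Rows were not independent. By the stated counting rule a tRNA count takes only reads that fit 1 amino acid and 1 anticodon, yet some rows of different anticodons had the same or nearly the same counts, and whether they hold the same reads was not tested. Rows whose counts lay within 1% or 2 counts of each other in every library formed 9 groups with 21 members in tissue, 10 groups with 21 members in fluid and 11 groups with 26 members in sperm. In sperm, 2 of these groups spanned anticodons, and the 5′ tRFs of AAG-1 and TAG-1 had the same count in every library there. In fluid the count of the AAG-1 5′ tRF was 0.963 to 0.997 times that of the TAG-1 5′ tRF, so the 2 rows are read as 1 signal below. The 3′ tRFs of CAA-1 and CAG-2 ran in parallel too, with a ratio of 0.735 to 0.988 in tissue, 0.855 to 0.953 in fluid and 0.987 to 1 in sperm. Shares of counts below take the most counted isodecoder of each anticodon and fragment type, so parallel rows of 1 anticodon are not added up. Parallel rows of different anticodons, such as the 5′ tRFs of AAG-1 and TAG-1 in sperm, are still added up.

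Summed counts per library were 30142156 to 249732714 in tissue, 1948718 to 12320922 in fluid and 1134840 to 62128314 in sperm. The KO corpus fluid libraries (1948718 to 3373869) were shallower than the WT ones (3989262 to 10172577), and in sperm 3 of the 4 WT libraries and 1 KO library held 1134840 to 3618739 counts. WT caput tissue replicate 3 and all 6 caput fluid libraries have a section entry of cauda, whereas their titles and descriptions name the caput. They were taken as caput, and WT caput tissue replicate 3 is left out where its results turn on it. The epithelial miRNAs (Mir200a, Mir200b, Mir200c, Mir141 and Mir429) were detected in every group.

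In every group most tRNA-Leu counts were 3′ tRFs, and in fluid almost all were. The 3′ share of tRNA-Leu counts was 98.8 ± 0.134% in WT caput fluid, 97.3 ± 1.37% in WT corpus fluid and 96.9 ± 0.806% in WT cauda fluid (SD, n = 3 each), and 99.0 ± 0.396%, 98.3 ± 0.225% and 97.7 ± 0.453% in the KO fluids (SD, n = 3 each). Single fluid libraries spanned 96.0 to 99.3%, above the 31.7 to 64.6% that 3′ tRFs took of all tRF counts in the same libraries. The 5′ tRFs, which took 34.5 to 66.3% of all tRF counts in fluid, made up 0.666 to 3.88% of the tRNA-Leu counts. Fragments of tRNA-Ser and tRNA-SeC, the other tRNAs with a long variable arm, were also mostly 3′ in fluid, at 81.2 to 96.2% per library.

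In tissue the 3′ share of tRNA-Leu was lower, at 73.0 to 77.7% as group means, with 9.93 to 14.8% 5′ tRFs and 11.4 to 14.9% other tRFs. The WT caput, WT cauda, KO caput and KO cauda libraries of replicate 3 each had the highest 3′ share of their group (81.8%, 78.9%, 80.6% and 79.5%). In sperm the 3′ share was 78.4 ± 7.28% in WT (71.9 to 88.8%, SD, n = 4) and 88.8 ± 1.26% in KO (87.6 to 90.1%, SD, n = 4), with 1 WT library inside the KO range. Tissue and OTTR-seq libraries were made with different protocols, so the source and the protocol cannot be told apart in these levels, and no test was run between tables.

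**Figure D1:**
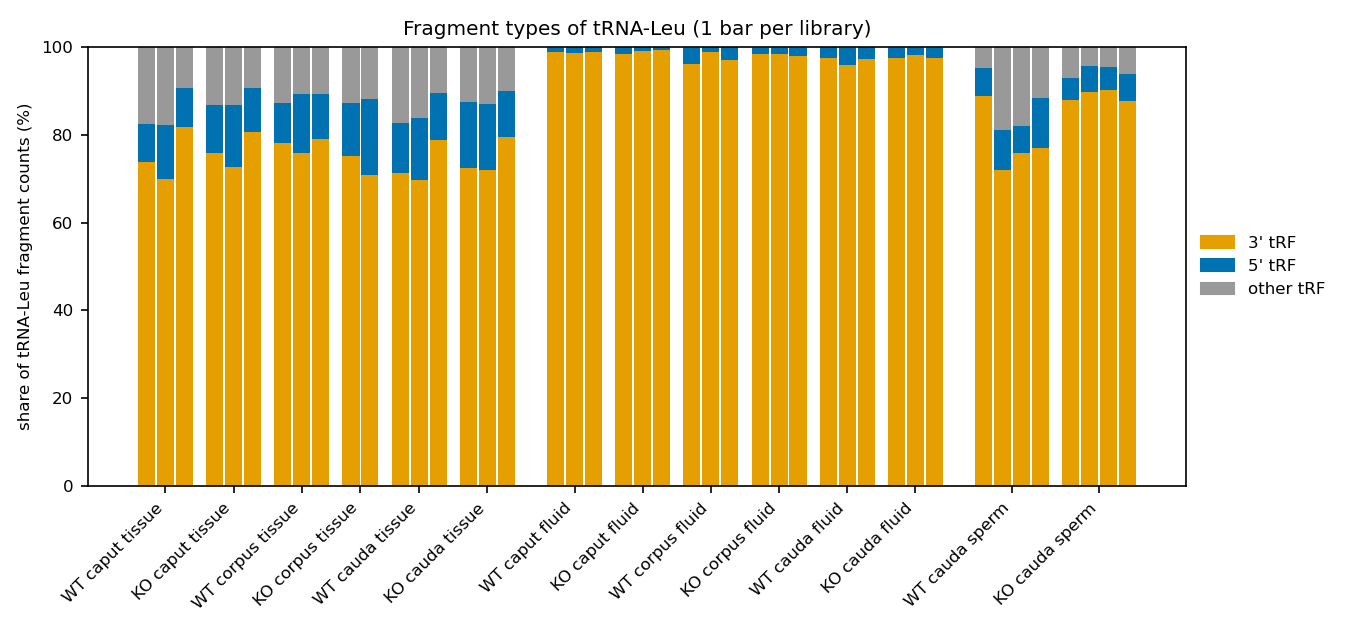
Share of tRNA-Leu fragment counts (y axis, percent) taken by 3′, 5′ and other tRFs, with 1 stacked bar per library and the libraries grouped by genotype, segment and source on the x axis. The 18 fluid bars are 96.0% or more 3′ tRF, whereas tissue and sperm bars hold visible 5′ and other tRFs.

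The tRNA-Leu share of all tRF counts was 5.58 to 7.34% in tissue, 9.06 to 12.7% in fluid and 10.3 ± 0.839% (WT) and 9.48 ± 0.361% (KO) in sperm (SD, n = 4). In corpus fluid the 3 WT libraries had 13.3, 13.4 and 10.9% and the 3 KO libraries 9.06, 8.54 and 9.59%. The groups did not overlap, and the exact 2-sided permutation test gave p = 0.1, the smallest that 3 against 3 libraries allow. In cauda tissue the WT libraries had 5.11, 5.95 and 5.67% and the KO libraries 6.69, 6.01 and 7.96%, again without overlap (exact permutation test, p = 0.1). As a share of all counts the cauda tissue difference had the other sign, with a log2 ratio of KO to WT of -0.75. Over 44 shares tested, the smallest adjusted p of the exact permutation tests was 0.367.

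The anticodons CAA and CAG led in each source. In fluid they took 34.9 to 37.7% and 38.1 to 41.0% of the tRNA-Leu counts as group means, in tissue 29.6 to 35.7% and 36.2 to 40.0%, and in sperm 33.4% (WT) and 36.6% (KO) for CAA and 24.8% and 25.7% for CAG. In tissue and fluid the most counted 3′ rows of both had nearly the same counts, with CAA-1 at 0.735 to 0.988 times CAG-2 in tissue and CAA-3 at 0.879 to 0.979 times CAG-2 in fluid. In sperm the CAA-2 3′ tRF had 1.27 to 1.63 times the counts of the CAG-2 3′ tRF in each library. AAG and TAG took larger parts in sperm, at 16.1 ± 4.61% and 17.4 ± 4.57% in WT (SD, n = 4), than in WT caput fluid, at 6.80 ± 0.692% and 5.48 ± 0.578% (SD, n = 3). The sperm came from the cauda, so this contrast also spans segments, and the parts in WT cauda fluid are not given here.

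The share of TAA differed between fluid segments. It was 12.9, 8.99 and 9.37% in WT caput fluid and 5.03, 6.03 and 5.51% in WT corpus fluid, without overlap. In WT cauda fluid it was 2.88, 7.32 and 4.52%. The KO libraries had 11, 15.2 and 13.2% in the caput, 7.62, 8.29 and 9.34% in the corpus and 5.28, 9.18 and 7.79% in the cauda, and in the corpus each KO library lay above each WT library. These anticodon shares are descriptions without a test.

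The anticodons also differed in their fragment types. In fluid, 5′ tRFs made up 0.229 to 0.324% of the CAA counts and 0.458 to 0.858% of the TAA counts as group means. For AAG and TAG the 5′ part was larger, at 3.65 ± 0.124% and 4.65 ± 0.969% in WT caput fluid, 9.93 ± 5.29% and 12.5 ± 6.90% in WT corpus fluid and 8.47 ± 1.65% and 12.6 ± 3.51% in WT cauda fluid (SD, n = 3). In KO corpus fluid it was 3.93 ± 1.5% and 3.82 ± 1.28% (SD, n = 3). In tissue, TAA stood apart from the other anticodons with 24.4 to 43.0% other tRFs and only 42.0 to 58.9% 3′ tRFs as group means, while CAA held 81.3 to 85.7% 3′ tRFs. Levels of TAA in tissue spread widely between replicates, with a 3′ share of 28.9 to 65.7% in the 3 WT caput libraries.

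**Figure D2:**
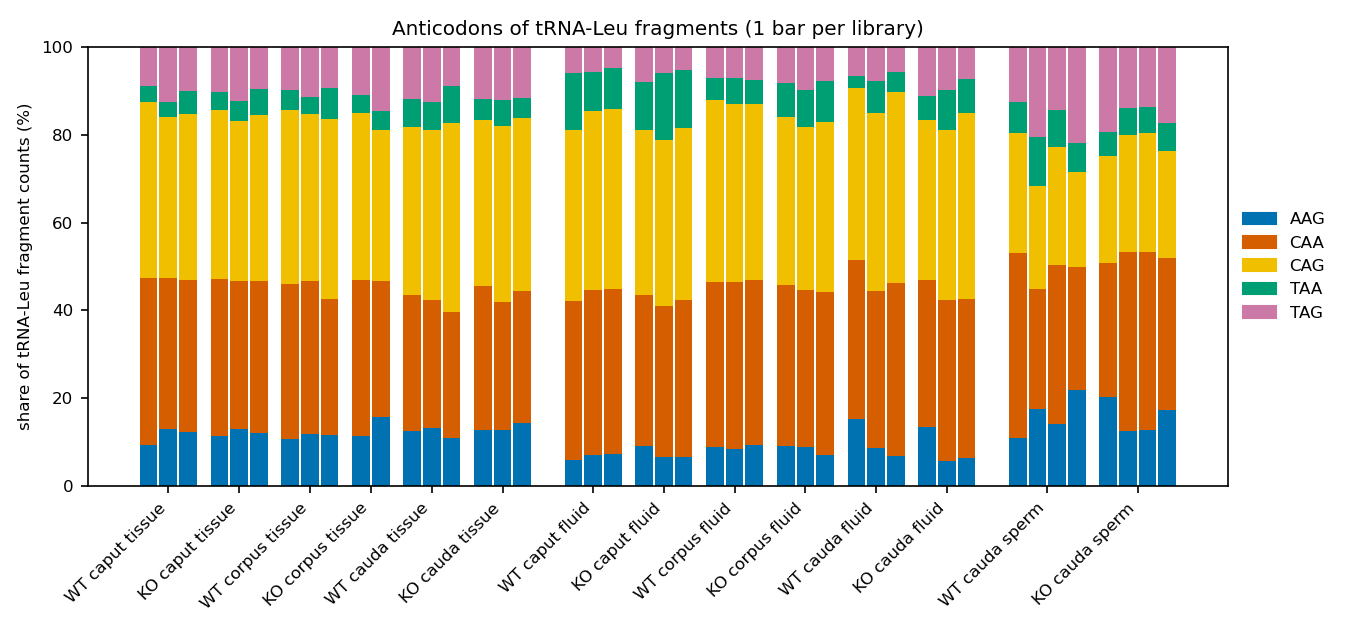
Share of tRNA-Leu fragment counts (y axis, percent) by anticodon, with 1 stacked bar per library and libraries grouped on the x axis as labelled. CAA and CAG fill most of each bar, and AAG and TAG are wider on average in WT sperm than in WT caput fluid. The sperm came from the cauda, so this contrast also spans segments. In sperm the 5′ tRFs of AAG-1 and TAG-1 had the same counts, and both are included. Among fluid bars, TAA reaches its largest shares in the caput (8.99 to 15.2%). Single KO corpus and KO cauda bars exceed the lowest caput bar.

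To ask whether the loss of Rnase9-12 altered tRNA-Leu fragments, KO and WT were set against each other per segment and for sperm, and to ask how the fragments vary along the epididymis, WT corpus and WT cauda were compared with WT caput. Levels below are CPM on library sizes scaled by TMM, and fold changes come from edgeR's quasi-likelihood test on the whole table with Benjamini-Hochberg adjustment over all rows tested. A row was called at an adjusted p under 0.05 and a log2 fold change beyond 1 in either direction. The study calls its replicates biological, and the number of mice behind a tissue library is not given in the sources used here, so p-values measure the spread between these libraries.

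**Figure D3:**
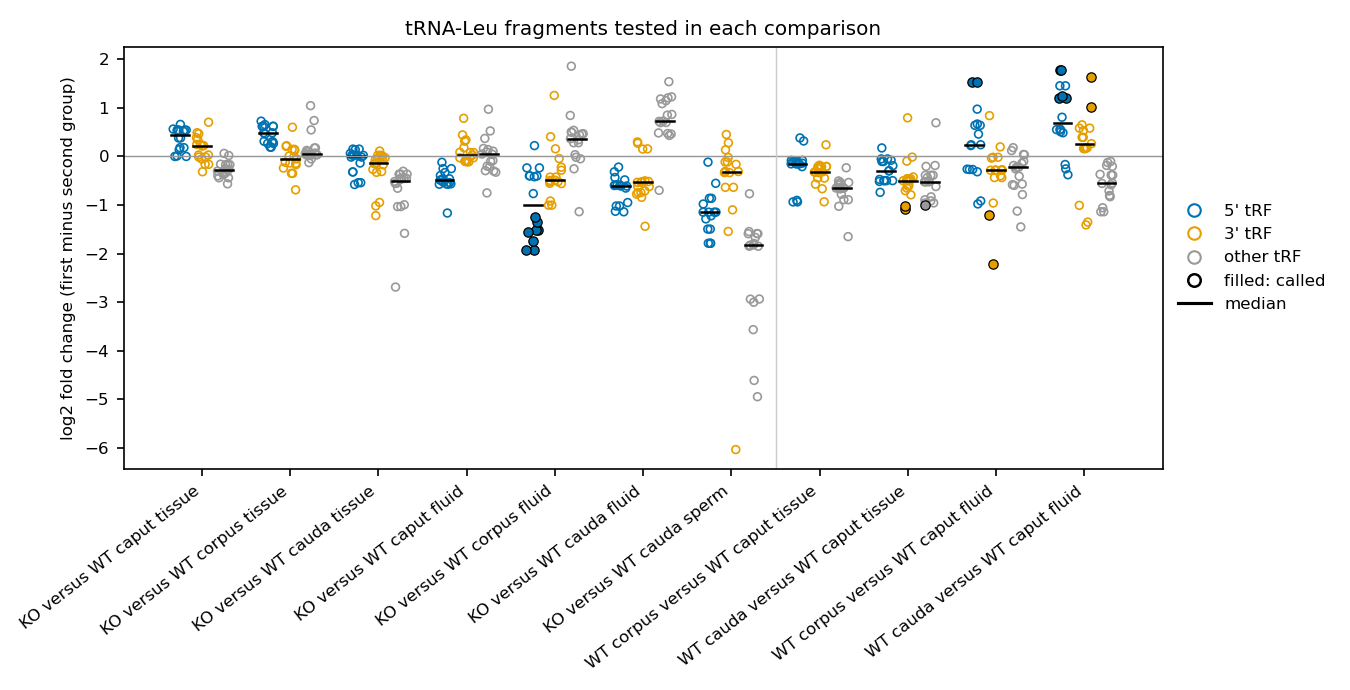
Log2 fold change (y axis, first minus second group) of each tRNA-Leu row that passed the filter, by comparison on the x axis and coloured by fragment type, with filled points for called rows and black lines for medians. Called rows are 8 5′ tRFs lower in KO corpus fluid, 5′ and 3′ tRFs in the WT fluid segments, and 3 rows lower in WT cauda tissue. The sperm rows lie mostly below 0 and none is called by edgeR.

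In corpus fluid, 5′ tRFs of AAG and TAG, and those of CAG-3 and CAG-4, were lower in KO than in WT. Of the 50 tRNA-Leu rows tested, 8 were called lower and 0 higher, whereas 6.23% of all rows tested were called lower and 13.5% higher. All 8 were 5′ tRFs, of 16 5′ rows tested, and they came from AAG-1, AAG-2, AAG-3, TAG-1, TAG-2, TAG-3, CAG-3 and CAG-4. Some of these rows had nearly the same counts, and as sums by anticodon and fragment type 2 were called, AAG 5′ and TAG 5′. The CAG 5′ sum was not called (log2 fold change -0.62, SE 0.56, adjusted p = 0.470).

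The AAG-1 5′ tRF was at 743, 192 and 374 CPM in the WT corpus fluid libraries and at 113, 90.2 and 141 CPM in the KO ones. Each KO library lay below each WT library, and WT replicate 1 was highest. The level was 3.80-fold lower in KO (log2 fold change -1.93, SE 0.41, adjusted p = 0.00236), and the TAG-1 5′ tRF, whose counts ran in parallel, had a log2 fold change of -1.92 (adjusted p = 0.0024). The call of AAG-1 held in 13 of 14 alternatives with log2 fold changes of -2.87 to -1.27.

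The CAG-3 5′ tRF was at 18.7, 5.84 and 5.84 CPM in WT and at 2.81, 3.24 and 2.9 CPM in KO corpus fluid. The groups did not overlap, but the KO level rested on 26 counts over its 3 libraries (log2 fold change -1.75, SE 0.48, adjusted p = 0.0139). The CAG-4 5′ tRF was at 97.9, 38.9 and 48.1 CPM in WT and at 27.3, 24 and 20.7 CPM in KO (log2 fold change -1.36, SE 0.44, adjusted p = 0.0344). The TAG-3 5′ tRF was at 59.9, 33.7 and 32.8 CPM in WT and at 26.9, 13.0 and 13.7 CPM in KO (log2 fold change -1.24, SE 0.44, adjusted p = 0.048). Both were lower in each KO library than in each WT library.

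The remaining called rows, the 5′ tRFs of TAG-2, AAG-2 and AAG-3, had log2 fold changes of -1.55, -1.52 and -1.52, and their groups overlapped. The TAG-2 5′ tRF was at 37.2, 11 and 17.1 CPM in WT and at 11.6, 4.59 and 6.22 CPM in KO. Not all 5′ tRFs were lower. The CAG-1 5′ tRF, the most counted 5′ row of CAG, was at 576, 182 and 232 CPM in WT and at 288, 255 and 297 CPM in KO, and the CAA-3 5′ tRF at 72.9, 35.4 and 41.3 CPM in WT and at 44.1, 30.5 and 38.5 CPM in KO, and neither was called.

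No 3′ and no other tRF of tRNA-Leu was called in corpus fluid. The CAG-2 3′ tRF, the most counted row, was at 23484, 22025 and 14100 CPM in WT and at 15116, 12188 and 13332 CPM in KO, with overlap. Over the members the median log2 fold change was -0.34 (5′ -1.0, 3′ -0.49, other 0.36), against -0.62 for fragments of the other nuclear tRNAs, -0.54 for tRNA-Ser and tRNA-SeC and 0.10 for all rows. Of the fragments of other nuclear tRNAs, 96 of 471 were called lower, and of the tRNA-Ser and tRNA-SeC fragments 2 of 40. Scaled on tRF rows alone, no member was called and the members' median turned to 0.25, with the 5′ median at -0.38.

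Scaled with TMM factors computed without tRFs, tRNAs and rRNA fragments, which moved the median of all rows by -0.88, 21 members were called lower, and 26% of all rows were called lower and 7.12% higher. The number of calls fell to 2 without WT corpus fluid replicate 1, to 3 without KO replicate 2 and to 3 without KO replicate 3. The shares of all rows called in these fits are not given. For the fits that leave out a library, a change in the members therefore cannot be told here from one in the whole table. Some lists of summed marker miRNAs also differed between these groups without overlap. Smooth muscle miRNAs (Mir143 and Mir145a) overlapped, at 127 to 267 CPM in KO and 90.6 to 168 CPM in WT. Blood miRNAs overlapped too, at 18.4 to 120 CPM in KO and 19.0 to 50.2 CPM in WT. Epithelial ones were at 87.5 to 134 CPM in KO and 27.1 to 62.6 CPM in WT, the endothelial Mir126a at 25.7 to 73.8 and 9.41 to 22.4 CPM, and those of germ and ciliated cells (Mir34b, Mir34c and Mir449a) at 12.8 to 15.4 and 3.58 to 9.06 CPM. The part of these differences and of the lower KO depth in the result was not tested.

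In caput fluid no member was called, and in cauda fluid none either. By edgeR, 0 of all rows in caput fluid and 0 in cauda fluid were called, and DESeq2 called 0 members in both. Before adjustment, 1 member was lower in KO caput fluid and 0 higher at p under 0.05, against 5.14% and 5.44% of all rows. It was the CAG-4 5′ tRF, at 31.1, 33.4 and 29.6 CPM in WT and at 15.5, 11.4 and 15 CPM in KO. Of the 16 5′ rows, 7 lay below WT in each KO caput library, where 12.7% of all rows did. Some of the 16 rows had nearly the same counts. The epithelial marker miRNAs were at 241 to 298 CPM in KO and 103 to 182 CPM in WT caput fluid, and their part in these values was not tested.

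In cauda fluid the AAG-1 5′ tRF was at 615, 389 and 559 CPM in WT and at 229, 226 and 255 CPM in KO. The groups did not overlap, and the log2 fold change was -1.14 (SE 0.40, adjusted p = 0.297). Of the 16 5′ rows, 5 lay below WT in each KO library, against 3.91% of all rows, and before adjustment 8 members passed p under 0.05 below WT (2.82% of all rows) and 5 above it (6.48%). These numbers of members rested on single libraries and on the scaling, and some of the rows had nearly the same counts. Without KO replicate 3 there were 23 lower (9.46% of all rows) and 0 higher, and without KO replicate 2 there were 0 lower and 2 higher (4.92%). Without KO replicate 1 there were 2 lower (1.88%) and 7 higher (3.25%). Without WT replicate 1 there were 8 lower (3.71%) and 0 higher, without WT replicate 2 there were 8 lower (3.21%) and 11 higher (14%), and without WT replicate 3 there were 1 lower (1.88%) and 3 higher (3.94%). With library sizes alone there were 0 lower and 7 higher (9.74%). The 5 higher ones were other tRFs, such as TAG-1, at 2.76, 8.36 and 7.31 CPM in WT and at 6.32, 16.1 and 16.8 CPM in KO (log2 fold change 1.09, SE 0.49, adjusted p = 0.503). The KO effect in corpus fluid was compared with that in cauda fluid by an interaction term, which called 0 members by edgeR and 0 by DESeq2. Before adjustment 1 was lower and 1 higher at p under 0.05 (10.1% and 13.1% of all rows), where 2.87% of all rows were called lower and 4.5% higher. The number lower was 15 with TMM factors computed without tRFs, tRNAs and rRNA fragments (23.7% of all rows). A difference between corpus and cauda in the KO effect was therefore not shown for any member with TMM factors from all rows.

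Along the WT epididymis, 5′ tRFs of AAG and TAG were higher in corpus and cauda fluid than in caput fluid. The AAG-1 5′ tRF was at 125, 157 and 172 CPM in the caput, below every corpus (192 to 743 CPM) and every cauda library (389 to 615 CPM). It was 2.89-fold higher in the corpus (log2 fold change 1.53, SE 0.40, adjusted p = 0.0119) and 3.45-fold higher in the cauda (log2 fold change 1.79, SE 0.41, adjusted p = 0.00346), and the TAG-1 5′ tRF had log2 fold changes of 1.52 and 1.78. Both comparisons use the same caput libraries.

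In the corpus these 2 rows were the members called higher (background 8.21%), and 2 were called lower (background 9.54%), both 3′ tRFs of TAA. The TAA-1 3′ tRF was at 763, 886 and 727 CPM in the caput and at 202, 166 and 142 CPM in the corpus (log2 fold change -2.22, SE 0.62, adjusted p = 0.0156). The TAA-2 3′ tRF was at 7537, 5192 and 6051 CPM in the caput and at 2875, 3294 and 1956 CPM in the corpus (log2 fold change -1.21, SE 0.42, adjusted p = 0.0492). Each corpus library lay below each caput library for both rows. In the cauda the TAA-1 3′ tRF was at 58.6, 439 and 434 CPM and the TAA-2 3′ tRF at 1640, 3215 and 4488 CPM, below each caput library, and neither was called (TAA-2 log2 fold change -1.01, SE 0.42, adjusted p = 0.0791).

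The split of calls in the corpus moved with the scaling. Of the calls, 0 were lower and 4 higher with TMM factors computed without tRFs, tRNAs and rRNA fragments (background 3.91% and 15.9%), 1 lower and 3 higher with library sizes alone, and 1 lower and 2 higher with DESeq2 size factors. Without WT caput fluid replicate 1 no member was called, without WT corpus fluid replicate 1 only 1 was, and without WT caput replicate 2, WT caput replicate 3 or WT corpus replicate 3 there were 2. No background is given for these fits, for library sizes alone or for DESeq2 size factors. The epithelial marker miRNAs were at 27.1 to 62.6 CPM in the corpus and 103 to 182 CPM in the caput, and those of germ and ciliated cells at 3.58 to 9.06 and 2.0 to 3.50 CPM. Their part in the result was not tested.

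In the cauda, 7 members were called higher (background 9.69%) and 0 lower (background 15.4%). They were the 5′ tRFs of AAG-1, AAG-2, AAG-3, TAG-1 and TAG-2 and the 3′ tRFs of TAG-1 and TAG-2. The TAG-2 3′ tRF was at 211, 213 and 249 CPM in the caput and at 915, 474 and 711 CPM in the cauda, without overlap (3.12-fold, log2 fold change 1.64, SE 0.36, adjusted p = 0.0026). It passed in 14 of 14 alternatives. The most counted 3′ row of the anticodon, TAG-3, was at 3365, 3127 and 2964 CPM in the caput and at 3105, 3019 and 5223 CPM in the cauda and was not called, so the isodecoders of TAG differed from each other in which rows passed.

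Scaled on tRF rows alone, 9 members were called higher and 3 lower in the cauda (background 17.1% and 20.5%), and with library sizes alone 3 higher and 1 lower. The count fell to 3 when any WT caput library or WT cauda replicate 3 was left out. No background is given for these fits or for library sizes alone. Smooth muscle miRNAs (Mir143 and Mir145a) were at 147 to 321 CPM in cauda and 76.8 to 139 CPM in caput fluid, the blood miRNAs found (2 of 3 listed) at 40.0 to 61.0 and 23.6 to 25 CPM, and those of germ and ciliated cells at 15.1 to 31.6 and 2.0 to 3.50 CPM. Their part in the result was not tested.

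**Figure D4:**
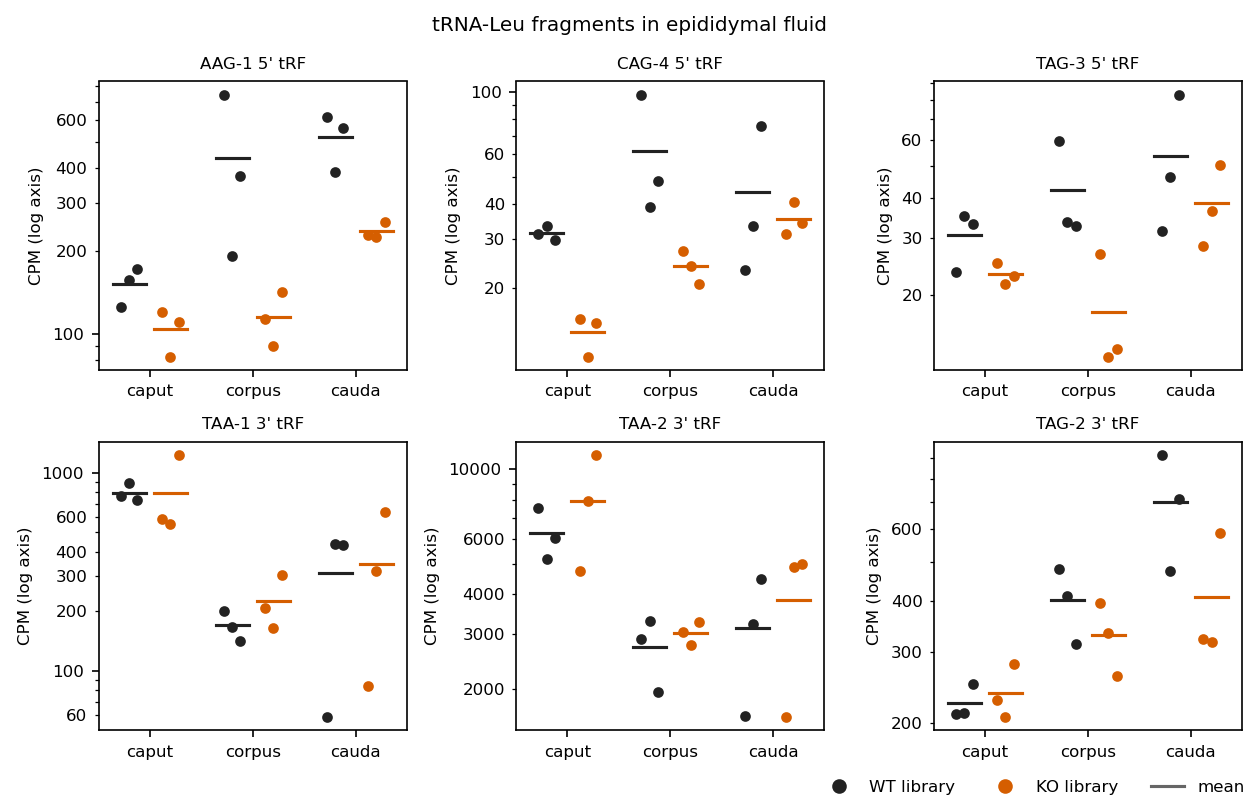
CPM (log y axis) of 6 tRNA-Leu fragments in each fluid library by segment (x axis), with WT in black, KO in orange and bars for the means. The 5′ tRF of AAG-1 is higher in WT corpus and cauda than in WT caput, and below WT in each KO corpus library (90.2 to 141 against 192 to 743 CPM), while the 3′ tRFs of TAA-1 and TAA-2 have their highest group means in the caput.

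In tissue no member was called between KO and WT by edgeR. In the caput, edgeR called 0 of 51 members, 0 passed p under 0.05 before adjustment (0.659% of all rows were lower and 0.315% higher), and DESeq2 called 0. Without WT caput replicate 3, 4 members were lower before adjustment (1.68% of all rows) and 0 were called. In the corpus, with 2 KO libraries, these counts were also 0, 0 and 0 (7.22% of all rows lower and 0.774% higher before adjustment), and without WT corpus replicate 2, 6 members were higher before adjustment (1.41% of all rows). In corpus tissue the smooth muscle miRNAs were at 24.3 to 29.5 CPM in KO and 44.2 to 87.5 CPM in WT and the epithelial ones at 10.5 to 10.7 and 16.3 to 25.9 CPM and Mir126a at 0.689 to 0.753 and 1.16 to 2.28 CPM, and their part in these values was not tested. The CAG-2 3′ tRF was at 269, 174 and 293 CPM in WT and at 215, 226 and 310 CPM in KO caput tissue, and at 195, 230 and 210 CPM in WT and 220 and 139 CPM in KO corpus tissue, with overlap in both.

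In cauda tissue edgeR called 0 of 51 members, where 0.831% of all rows were called lower and 0.0287% higher. Before adjustment, 5 members were lower and 0 higher at p under 0.05 (7.37% and 7.74% of all rows). With replicate numbers as a block, which pair these libraries, 10 were lower (10.5% of all rows), and 11 were lower without KO replicate 1 (10.3%), 11 without KO replicate 3 (12.7%) and 10 without WT replicate 2 (10.6%). DESeq2 called 3 lower (background 2.24%), the other tRFs of CAG-4, TAA-1 and TAA-2. All 18 other tRFs had log2 fold changes below 0 (median -0.50, and 0.00 when scaled on tRF rows alone), and 11 of them lay below WT in each KO library, against 10.1% of all rows. Some of the 18 rows had nearly the same counts. The TAA-2 other tRF was at 11.3, 9.31 and 12.1 CPM in WT and at 5.54, 4.66 and 6.17 CPM in KO, without overlap (log2 fold change -1.0, SE 0.28, adjusted p = 0.116). The CAG-4 other tRF was at 1.13, 1.68 and 1.44 CPM in WT and at 0.0659, 0.550 and 0.664 CPM in KO, and it was called with replicate numbers as a block (log2 fold change -1.66, SE 0.40, adjusted p = 0.0128), the sole member that was (background 3.47%).

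The median log2 fold change of the members in KO cauda tissue was -0.32, against -0.60 for fragments of the other nuclear tRNAs and 0.12 for all rows, and it turned to 0.22 when scaled on tRF rows alone. Whether the KO effect differed between cauda and caput tissue was tested by an interaction term, which called 0 members by edgeR and 0 by DESeq2 (4 lower and 0 higher before adjustment at p under 0.05, against 3.67% and 2.38% of all rows).

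Between WT tissue segments, 3 members were called lower in the cauda than in the caput and 0 higher, where 7.28% of all rows were called lower and 15.7% higher. The CAA-4 3′ tRF was at 244, 159 and 187 CPM in the caput and at 84.1, 84.5 and 111 CPM in the cauda (log2 fold change -1.08, SE 0.32, adjusted p = 0.0201). The CAG-4 3′ tRF was at 26.8, 18.6 and 25.7 CPM in the caput and at 10.4, 12.3 and 12.6 CPM in the cauda (log2 fold change -1.01, SE 0.30, adjusted p = 0.0201). The CAA-4 other tRF was at 31.1, 24.6 and 13.5 CPM in the caput and at 11.8, 11.7 and 10.9 CPM in the cauda (log2 fold change -1.01, SE 0.34, adjusted p = 0.0371). For each of these rows every cauda library lay below every caput library.

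These calls were close to the threshold. The number was 7 without WT caput replicate 3, whose section entry names the cauda, and 0 without WT caput replicate 1 or without any WT cauda library. With replicate numbers as a block, 2 of the 3 remained, both 3′ tRFs. Smooth muscle miRNAs were at 108 to 215 CPM in WT cauda and 20.6 to 40.3 CPM in WT caput tissue, and their part in the result was not tested. In corpus against caput tissue edgeR called 0 members (background 2.81% lower and 9% higher). Before adjustment 8 members were lower and 0 higher at p under 0.05 (6.88% and 16.9% of all rows). With replicate numbers as a block, which pair these libraries, 15 were lower (8.77% of all rows), and 1 was without WT caput replicate 1 (5.35%) and 15 were without WT caput replicate 3 (8.8%). DESeq2 called 6 lower (background 3.46%), and edgeR called 3 without WT caput replicate 3 and 2 without WT corpus replicate 2. For calls in fits that leave out a tissue library, the shares of all rows called are not given. Smooth muscle miRNAs were at 44.2 to 87.5 CPM in the corpus, and their part was not tested.

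In sperm, tRNA-Leu rows lay below WT in KO without a call by edgeR, which called 0 of 50 members and 0 of all rows. Before adjustment, 29 members were lower at p under 0.05, against 9.48% of all rows, and 0 were higher, against 8.02%. Some of these rows had nearly the same counts. As sums by anticodon and fragment type, 10 of 15 were lower before adjustment, 0 were higher and 0 were called. The share of all rows in that fit is not given. DESeq2 called 15 members lower (background 3.32%), and among them were 13 other tRFs. The median log2 fold change of the members was -1.18 (5′ -1.15, 3′ -0.31, other -1.83), against -0.86 for tRNA-Ser and tRNA-SeC, -0.61 for fragments of the other nuclear tRNAs and -0.0028 for all rows. Scaled on tRF rows alone the members' median was -0.64, the 3′ median turned to 0.41, and 4 members were called lower (background 7.03%).

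The lowest medians were those of other tRFs. The CAA-2 other tRF was at 30.3, 65.5, 70.3 and 25.7 CPM in the WT libraries and at 19.7, 19.8, 16 and 9.61 CPM in the KO ones (log2 fold change -1.55, SE 0.49, adjusted p = 0.178). The CAG-2 other tRF was at 30.3, 67.1, 70.3 and 16.6 CPM in WT and at 15.1, 15.4, 13.0 and 8.24 CPM in KO (log2 fold change -1.82, SE 0.53, adjusted p = 0.154). For both rows each KO library lay below each WT library, and WT replicates 2 and 3 were highest. In all, 8 of the 17 other rows lay below WT in this way, against 1.25% of all rows. Some of the 17 rows had nearly the same counts, such as those of CAG-1 and CAG-2, so they are not separate signals.

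The spread between WT libraries was wide. The TAG-1 other tRF was at 20.7, 112, 66.1 and 5.42 CPM in WT and at 7.83, 6.06, 6.67 and 5.83 CPM in KO (log2 fold change -2.94, SE 0.74, adjusted p = 0.116). The TAA-3 3′ tRF, which has the lowest log2 fold change of the members (-6.03), was at 1.77, 72.2, 16.4 and 0 CPM in WT and at 0.284, 0.421, 0.392 and 0 CPM in KO. Both rows were high in WT replicates 2 and 3 and near or within the KO range in WT replicate 4. Without WT sperm replicate 4, edgeR called 24 of 51 members lower and 0 higher (background 7.3% and 4.2%). WT replicates 2 to 4 are also the shallowest of the table, and the part of depth in these values was not tested. The summed marker miRNAs of each list overlapped between KO and WT sperm.

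Of the 16 5′ tRFs tested in sperm, 11 were lower in KO at p under 0.05 before adjustment, against 9.48% of all rows. None of them was called by edgeR, and some of the 16 rows had nearly the same counts. The AAG-1 5′ tRF was at 64.0, 61.2, 41.8 and 29.6 CPM in WT and at 19.3, 36.6, 28.7 and 23.7 CPM in KO, with overlap, and the CAG-1 5′ tRF at 32.2, 42.1, 18 and 6.87 CPM in WT and at 5.88, 12.4, 10.8 and 5.83 CPM in KO (log2 fold change -1.5, SE 0.56, adjusted p = 0.217). As a share of tRNA-Leu counts, 5′ tRFs took 6.51, 9.23, 6.19 and 11.5% in WT and 5.0, 5.85, 5.30 and 6.16% in KO. These groups did not overlap (exact 2-sided permutation test, p = 0.0286, adjusted p = 0.367 over 44 shares). The 3′ tRFs, which make up most of the counts, overlapped between genotypes, with the CAA-2 3′ tRF at 1117, 448, 568 and 150 CPM in WT and at 292, 637, 559 and 326 CPM in KO.

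**Figure D5:**
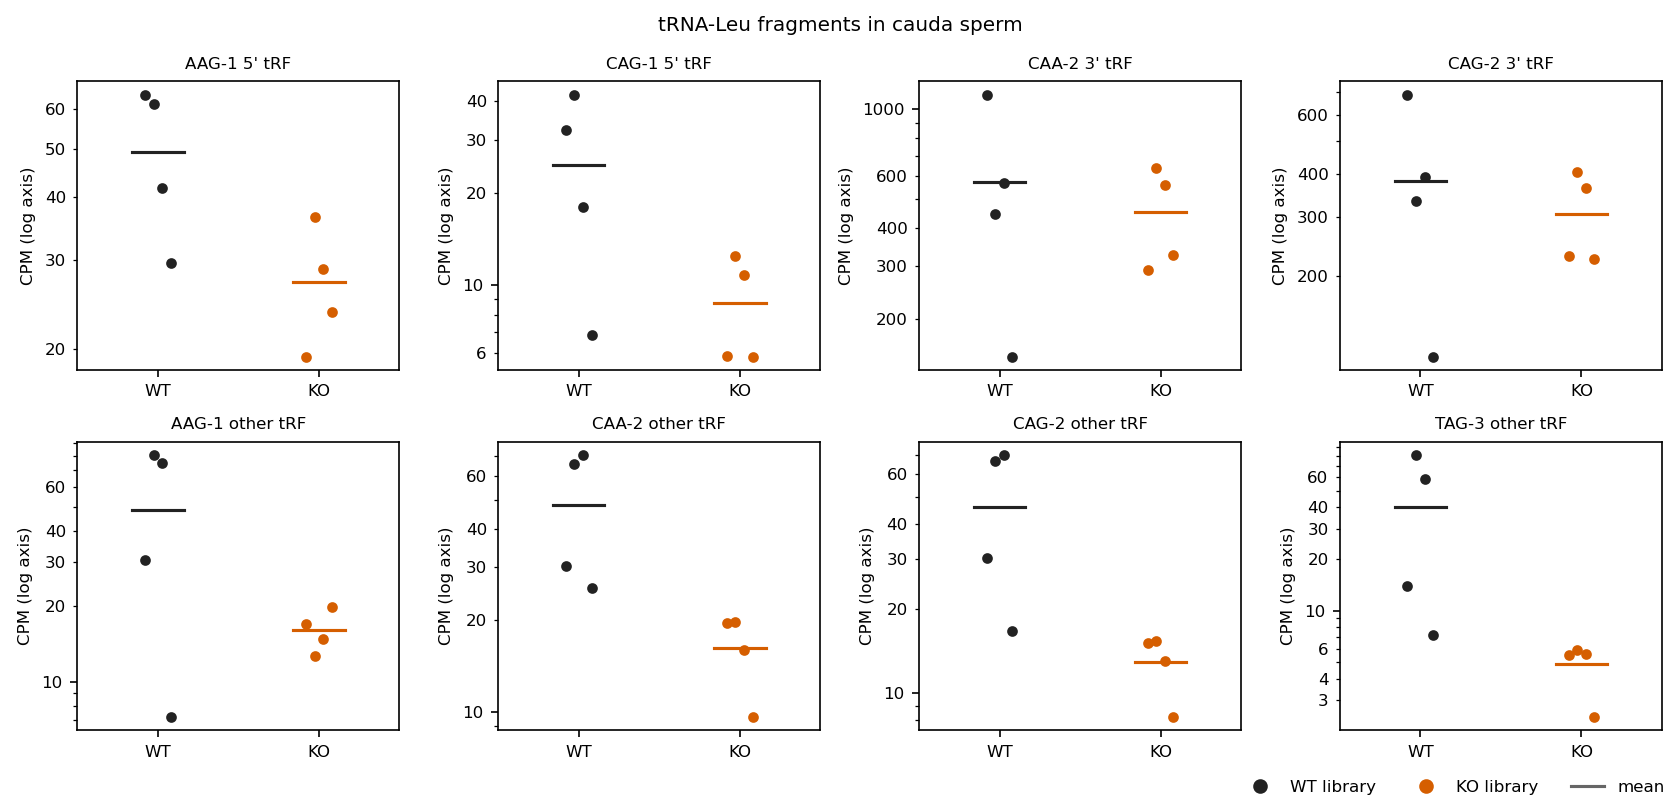
CPM (log y axis) of 8 tRNA-Leu fragments in the 4 WT (black) and 4 KO (orange) cauda sperm libraries (x axis), with bars for the means. The other tRF of CAA-2 (9.61 to 19.8 CPM in KO, 25.7 to 70.3 CPM in WT) and that of CAG-2 (8.24 to 15.4 and 16.6 to 70.3 CPM) lie below WT in each KO library, whereas the 3′ tRFs of CAA-2 and CAG-2 overlap.

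Full-length tRNA-Leu was counted rarely, with 5 to 73 counts per tissue library, 0 to 20 per fluid library and 0 or 1 per sperm library over the 18 isodecoders. In cauda tissue it summed to 0.365, 0.191 and 0.0391 CPM in WT (5 to 11 counts) and to 0.725, 0.477 and 0.127 CPM in KO (9 to 13 counts), so that each KO library lay above the WT library of its number while the groups overlapped. Full-length CAG-2, which passed the filter in tissue, had log2 fold changes of KO to WT of 1.24 in the caput (SE 0.88, adjusted p = 1.0), 1.40 in the corpus (SE 0.93, adjusted p = 0.746) and 1.27 in the cauda (SE 1.08, adjusted p = 0.608), and none was called. The mitochondrial mt-Tl1 shown above was at 0.420, 0.500 and 0.211 CPM in WT caput and at 1.99, 2.67 and 0.426 CPM in WT cauda tissue. Replicate 3 of the cauda lay within the caput range, and mt-Tl1 was called higher in the cauda (log2 fold change 2.15, SE 0.76, adjusted p = 0.0472), where no nuclear tRNA-Leu fragment was. The other mitochondrial leucine tRNA, mt-Tl2, was not called (log2 fold change 0.28, SE 0.86, adjusted p = 0.861). Neither differed between KO and WT tissue past the threshold, with adjusted p of 0.516 to 1.0 over both and 3 segments.

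The rows most like the mean of the members, by Pearson r of log2 CPM over all libraries of a table, were the other tRFs of tRNA-Asn-GTT-1 (0.948), tRNA-Asn-GTT-3 (0.944) and tRNA-Ser-GCT-5 (0.938) in tissue (17 libraries). In fluid (18 libraries) they were the 5′ tRFs of tRNA-Gln-TTG-1 (0.891) and tRNA-Gln-TTG-2 (0.890) and the 3′ tRF of tRNA-Cys-GCA-2 (0.880). In sperm (8 libraries) they were the other tRF of tRNA-Met-CAT-6 (0.981) and the Ensembl small RNA genes Gm26254 (0.978) and Gm24695 (0.975). These are descriptions over libraries that share groups, depth and scaling.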

How the data were processed

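The authors trimmed the reads with cutadapt (the submitters' processing notes also name UMI-tools), mapped them with bowtie2 to mm10 with mature tRNA and rRNA sequences in a modified tRAX pipeline and deposited whole-number read counts per RNA, without normalization. Tool versions are not given in the sources used here. Of 4890, 3178 and 4323 rows listed for tissue, fluid and sperm, 3488, 2023 and 2480 passed filterByExpr by group (minimum count 10, minimum total 15). Counts were scaled with TMM. For each table, 1 quasi-likelihood model of edgeR 4.0.16 (R 4.3.3, no covariates) held every group. DESeq2 1.42.0 was an alternative. Shares were compared with exact 2-sided permutation tests (scipy 1.17.1). The model was also run on simulated independent counts, without paired libraries or shared reads, and the outcome is not given here. Errors are SD between libraries.

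Members and lists were chosen with earlier results of these data known. The rule named the most counted isodecoder of each anticodon and fragment type, the 2 called members with the smallest p whose groups did not overlap, and every called member where 5 or fewer were; the remaining members named were picked after their values were seen. Replicate numbers in the titles paired WT and KO cauda tissue (correlations of deviations 0.272 to 0.596) and the WT tissue segments (0.306 to 0.633). In WT and KO caput tissue, replicates 2 and 3 correlated by number (0.518 and 0.723) but replicate 1 did not (0.0288). Caput tissue and the remaining comparisons were not taken as paired. Alternatives were other scalings, no filter, DESeq2, the groups compared alone, the block, sums by anticodon, other shares and leaving out each library.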

Additional observations from a re-analysis of the deposited data

How the results depend on the processing

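Counts of called members moved with these alternatives. Apart from sperm without WT replicate 4, shares of all rows called are not given for the fits that leave out a library. For the other alternatives they are given only where stated in the sections above. Where the share is not given, a move of the members cannot be told here from a move of the whole table. In KO against WT corpus fluid (8) the count was 21 with TMM factors computed without tRFs, tRNAs and rRNA fragments, 0 on tRF rows only, 4 with the 2 groups alone, 2 as sums by anticodon and 2 to 10 leaving out each library. In WT cauda against caput fluid (7) it was 4 with library sizes, 12 on tRF rows, 2 as sums and 3 to 7 leaving out libraries, and in WT corpus against caput fluid (4) 2 as sums and 0 to 3. In WT cauda against caput tissue (3) it was 5 with DESeq2 size factors, 8 with those factors, 0 on tRF rows, 1 without the filter, 5 with DESeq2, 0 with the 2 groups alone, 0 as sums and 0 to 7 leaving out libraries. In WT corpus against caput tissue (0) it was 1 with DESeq2 size factors, with library sizes or with those factors, 6 with DESeq2 and 0 to 3. In KO cauda tissue (0) it was 3 with DESeq2 and 0 to 1 (without KO replicate 3). In sperm (0) it was 4 on tRF rows, 15 with DESeq2 and 0 to 24, and for the corpus against cauda interaction in fluid 1 with those factors. The cause was not tested.

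With the replicate block, 1 member was called in KO cauda tissue, where numbers pair the libraries, and the block moved no other count by over 1.5 times. Where the numbers do not pair the libraries, the block gave 6 calls in KO corpus fluid and 0 in sperm.

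Log2 ratios of the tRNA-Leu share changed sign, with the share of all counts, in KO caput (-0.14), corpus (-0.31) and cauda tissue (-0.75), WT corpus (-0.0078) and WT cauda fluid (0.0874). Summed over isodecoders they did so in KO corpus tissue (-0.0479), WT corpus tissue (0.0371) and WT corpus fluid (-0.0459), and sperm gave -0.13 (exact permutation test, p = 0.0286). Leaving out libraries gave -0.0439 to 0.21 in KO corpus tissue, -0.0329 to 0.12 in KO caput fluid, -0.16 to 0.0904 in WT corpus tissue, -0.0386 to 0.10 in WT corpus fluid and -0.12 to 0.0686 in WT cauda fluid. Values for single members were followed under these alternatives, though not for every member under every alternative. Of these values, 439 kept their direction and side of the threshold, 105 lost the call, 26 gained it and 0 changed direction. Over all members, direction did change with the scaling. In KO corpus fluid, 3′ rows with log2 fold changes below 0 went from 14 of 17 to 3 of 17 on tRF rows alone. In sperm they went from 14 of 17 to 4 of 16. With 2 to 4 libraries a group, smaller differences could not be called, and members under about 30 counts in a group rest on few reads.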

Other observations

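Among the 25 nuclear tRNA-Leu genes of RefSeq, 2 lie just beyond the Rnase9-12 cluster, which spans chr14:51007751-51057661 in mm10 (GRCm38). They are n-TLaag8 (anticodon AAG) at chr14:51063883-51063964, 6222 bp past the end of Rnase12, and n-TLtag2 (anticodon TAG) at chr14:51082830-51082911, 25169 bp past it. The breakpoints of the deletion were not analysed here, and the deposited isodecoder names could not be matched to single genes, so no count row was assigned to either gene.

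Other tRFs of tRNA-Leu in fluid, which took 0.0392 to 0.193% of the tRNA-Leu counts, made up 0.145 ± 0.00391% in KO cauda fluid and 0.0779 ± 0.0549% in WT cauda fluid (SD, n = 3). In corpus fluid they made up 0.170 ± 0.0271% in KO and 0.104 ± 0.0239% in WT, and the KO libraries (0.140, 0.177 and 0.193%) lay above the WT ones (0.129, 0.0815 and 0.101%). By exact 2-sided permutation tests no share passed the adjustment over 44 tests. Reads antisense to tRNA-Leu numbered 0 to 32 per tissue library and 0 to 54 per fluid library.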
